A study of Mus musculus with 15 samples.

Results

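Gene expression was compared between AMPKα1-deficient (KO) and control (WT) CD4+ T cells recovered from the spleen, which took 8 of the 15 samples of the series, 4 KO and 4 WT, chosen by their labels. All cells were on the C57BL/6 strain and carried floxed alleles of Prkaa1 (Prkaa1 fl/fl), so that the WT cells were floxed cells without Cre and the KO cells carried CD4-Cre in addition. Naive CD4+ CD25- CD44- CD62L+ T cells were injected into the peritoneum of Rag2-/- recipients, where they cause colitis, and the donor cells were sorted from the spleen 6 weeks later. The mice were 6 to 8 weeks old when used. CD4-Cre acts from the stage at which thymocytes carry both CD4 and CD8, so that the αβ T cells which arise after it carry the deleted allele, and Rag2-/- hosts have no mature T or B cells of their own but keep myeloid, erythroid and stromal cells. The labels do not say which recipient each sample came from, so p-values measure only the spread between these samples.

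AMP-activated protein kinase (AMPK) senses a low ratio of ATP to AMP. It is a complex of a catalytic α subunit with β and γ subunits, is switched on by the kinases STK11 and CAMKK2, and then restrains fat and protein synthesis and favours glucose uptake, fat oxidation and autophagy. T cells use the α1 subunit, and most of what AMPK does runs through phosphorylation, which mRNA does not report.

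Counts on genes came to 9363940 to 11283439 reads per spleen sample, of which 14254 genes had enough to be tested. Between 60.4% and 63.4% of the reads with a unique place in the genome were assigned to no gene in the counting. Scaled counts are given as counts per 1e6 reads (CPM) after TMM normalization, and differences as the log2 fold change of KO over WT with its SE. The 14 T cell markers, among them Cd3e, Cd4 and Trac, summed to 10510 to 13273 CPM in WT and 11958 to 12964 in KO, and none of the 14 passed the test of edgeR or of DESeq2, with 2 at an unadjusted p under 0.05 in edgeR and 2 (Trbc2 and Thy1) called by edgeR without WT 3 and WT 4. Cd8a and Cd8b1 together reached at most 5.03 CPM. Markers of other cells were present in every library. Among them the erythroid markers were high in WT 3 and WT 4 and the macrophage markers in KO 3, while the 13 dendritic cell markers summed to 286.7 to 508.1 CPM in WT and 452.9 to 824.6 in KO. The mast cell and basophil markers had 8.18 CPM in WT 3, 62.2 to 94.5 in the other WT samples and 38.7 to 51.8 in KO. Several results that move with the erythroid markers are given with and without WT 3 and WT 4. For the macrophage markers, only the numbers of calls are given without WT 3 and KO 3.

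Prkaa1 (chr15:5143861-5181899, GRCm38), which encodes AMPKα1, had 54.1, 49.1, 47.5 and 53.3 CPM in WT samples 1 to 4 and 20.3, 21.5, 18.7 and 20.6 CPM in KO samples 1 to 4. The groups did not overlap, with a log2 fold change of -1.33 ± 0.08 (SE, adjusted p = 7.6e-05). The counts cover the whole gene, so reads from exons that Cre leaves in place are included. Prkaa2, the gene of the α2 subunit, had at most 1 count in any spleen sample. None of the other 12 tested genes of AMPK subunits and upstream kinases passed the test. Their log2 fold changes ran up to 0.56 for Camkk1, and Stk11 stood at 0.02.

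Of the 14254 genes, 107 fell in KO spleen (0.751%) and 78 rose (0.547%) at an adjusted p under 0.05 in edgeR's quasi-likelihood test, which is the test meant below wherever no other is named. DESeq2 called 455 lower (3.19%) and 385 higher (2.7%). Of edgeR's calls 46 and 18 were past an absolute log2 fold change of 1. In all 185 genes that edgeR called the 4 KO values lay outside the range of the 4 WT values. Without regard to the test, 872 genes (6.12%) had every KO value below every WT value and 852 (5.98%) had every KO value above. At an unadjusted p under 0.05, edgeR had 1546 genes lower and 1378 higher among the 14254 tested. These shares and counts are the background for the gene lists that follow. There "no overlap" means that every KO value lies below, or every KO value above, every WT value. The RNA came from many cells at once, so fewer cells that express a gene and less of its RNA per cell cannot be told apart.

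**Figure D1:**
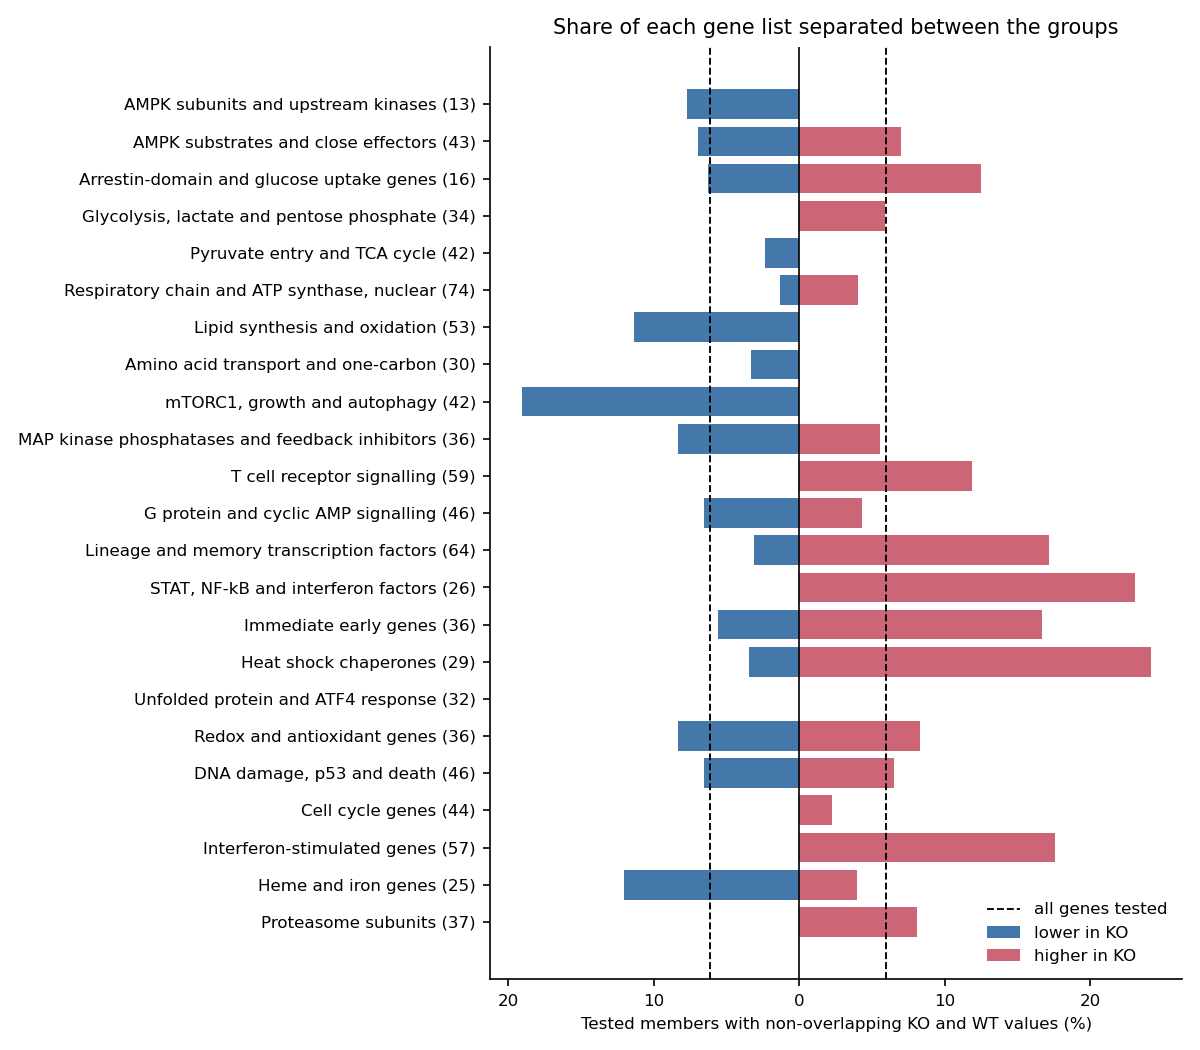
Share of the tested members of each gene list (number tested in brackets) whose KO and WT spleen values did not overlap, lower in KO to the left and higher to the right. The dashed lines mark the shares over all genes tested, 6.12% and 5.98%. The mTORC1 and autophagy list reaches 19.0% to the left, and the heat shock list 24.1% to the right.

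For central metabolism, in edgeR's test none of the 34 tested genes of glycolysis, lactate and the pentose phosphate pathway, the 42 of pyruvate entry and the TCA cycle, the 74 nuclear genes of the respiratory chain or the 53 of lipid synthesis and oxidation passed, with 5, 3, 9 and 9 of them at an unadjusted p under 0.05. DESeq2 called Acss2 of the lipid list lower and Ndufa4, a subunit of the respiratory chain, higher. Ndufa4 was also called higher by edgeR without WT 3 and WT 4. Of the 74 nuclear genes of the respiratory chain, 50 were on the higher side. The medians of these lists lay between -0.02 and 0.07 on the log2 scale, beside a median of all genes that rounds to 0. The 8 mitochondrially encoded genes were all on the lower side, with a median of -0.22, no call and no separation. WT 4 was the highest sample for 7 of those 8 genes, and without WT 3 and WT 4 the median was -0.02.

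In the lipid list 6 of 53 genes (11.3%) had lower values in every KO sample and none had higher values. Acss2, which makes acetyl-CoA from acetate, had 59.6, 72.1, 58.5 and 110.0 CPM in WT and 48.2, 56.8, 38.5 and 35.1 in KO. The others were Dgat2 and Mgll, which build and break down glycerides, and Cpt2, Acadvl and Hadha, enzymes of mitochondrial fat oxidation, whose log2 fold changes were -0.24, -0.13 and -0.09. The oxidation enzymes were thus separated by small steps. Acss2 had an adjusted p of 0.0994 in edgeR's test and 0.0149 in DESeq2.

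The call of largest size in the metabolic lists was Txnip, an arrestin-domain protein that binds thioredoxin and limits glucose uptake, and that AMPK is known to target for degradation. It had 318.8, 476.0, 362.1 and 663.8 CPM in WT and 199.3, 226.5, 206.9 and 214.6 in KO (log2 fold change -1.10 ± 0.19, adjusted p = 0.0391). WT values were spread widely and KO values lay close together below them. Gm15441, an annotated antisense transcript across Txnip (chr3:96557957-96561883), had a log2 fold change of -1.10 as well, and since the strand of the counts is not given the reads of this pair cannot be told apart. Slc5a3, a myo-inositol transporter that lies inside Mrps6, rose by 0.65 ± 0.13 (adjusted p = 0.0444), from 21.2 to 23.1 CPM in WT to 30.7 to 44.6 in KO. The other 14 tested genes of the arrestin-domain and glucose uptake list did not pass edgeR's test, glucose transporters and hexokinases among them. In edgeR 7 of the 16 tested genes of the list had an unadjusted p under 0.05. DESeq2 called 4 of them, 2 lower and 2 higher, namely Txnip, Slc5a3, Mlx and the glucose transporter Slc2a8.

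Among 43 tested substrates and close effectors of AMPK no gene passed edgeR's test, with 10 at an unadjusted p under 0.05, and DESeq2 called 4 (Sesn2, Rptor and Foxo3 higher, Fnip1 lower). Each direction held 3 genes without overlap, or 6.98% of the list, close to the background. Sesn2, a stress-induced sensor of leucine that feeds into AMPK and mTORC1, had 18.8, 14.7, 20.5 and 10.9 CPM in WT and 25.9, 25.1, 36.2 and 35.5 in KO (log2 fold change 0.92 ± 0.20, adjusted p = 0.0566 in edgeR and 0.00113 in DESeq2). Acaca, the acetyl-CoA carboxylase that AMPK phosphorylates, stood at -0.43 and Rptor, the mTORC1 subunit that it phosphorylates, at 0.24, both without overlap and without a call by edgeR.

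The mTORC1, growth and autophagy list had 8 of 42 genes (19.0%) lower in every KO sample and none higher. None passed edgeR's test, with 10 genes of the list at an unadjusted p under 0.05, and DESeq2 called Pik3ip1, Atg13 and Gpnmb lower. Pik3ip1, an inhibitor of PI3 kinase, had the smallest p among them. It had 56.7, 142.3, 65.0 and 168.0 CPM in WT and 44.0, 40.1, 29.6 and 37.1 in KO (log2 fold change -1.52 ± 0.32, adjusted p = 0.0516 in edgeR and 0.00699 in DESeq2). WT 1 and WT 3 lay much closer to KO than WT 2 and WT 4 did. The autophagy genes in the group moved in small steps, with log2 fold changes of -0.23 for Atg13, -0.19 for Bnip3l, -0.11 for Sqstm1 and -0.06 for Map1lc3b.

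Values without a call were also given by Rpe (0.29) for the pentose phosphate pathway, Pdk2 (-0.62), a kinase that restrains pyruvate dehydrogenase, Ndufv1 (-0.21) of respiratory complex I, Slc38a9 (-0.19), the lysosomal arginine sensor, E2f1 (0.49) for the cell cycle and Psmd7 (0.23) for the proteasome. Each is the gene with the smallest p among the separated members of its list. No gene of the amino acid list (30 tested), the cell cycle list (44) or the proteasome list (37) passed the test of edgeR or of DESeq2, with 2, 4 and 3 at an unadjusted p under 0.05 in edgeR. In the last list 34 of 37 subunits were on the higher side, with a median of 0.08.

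**Figure D2:**
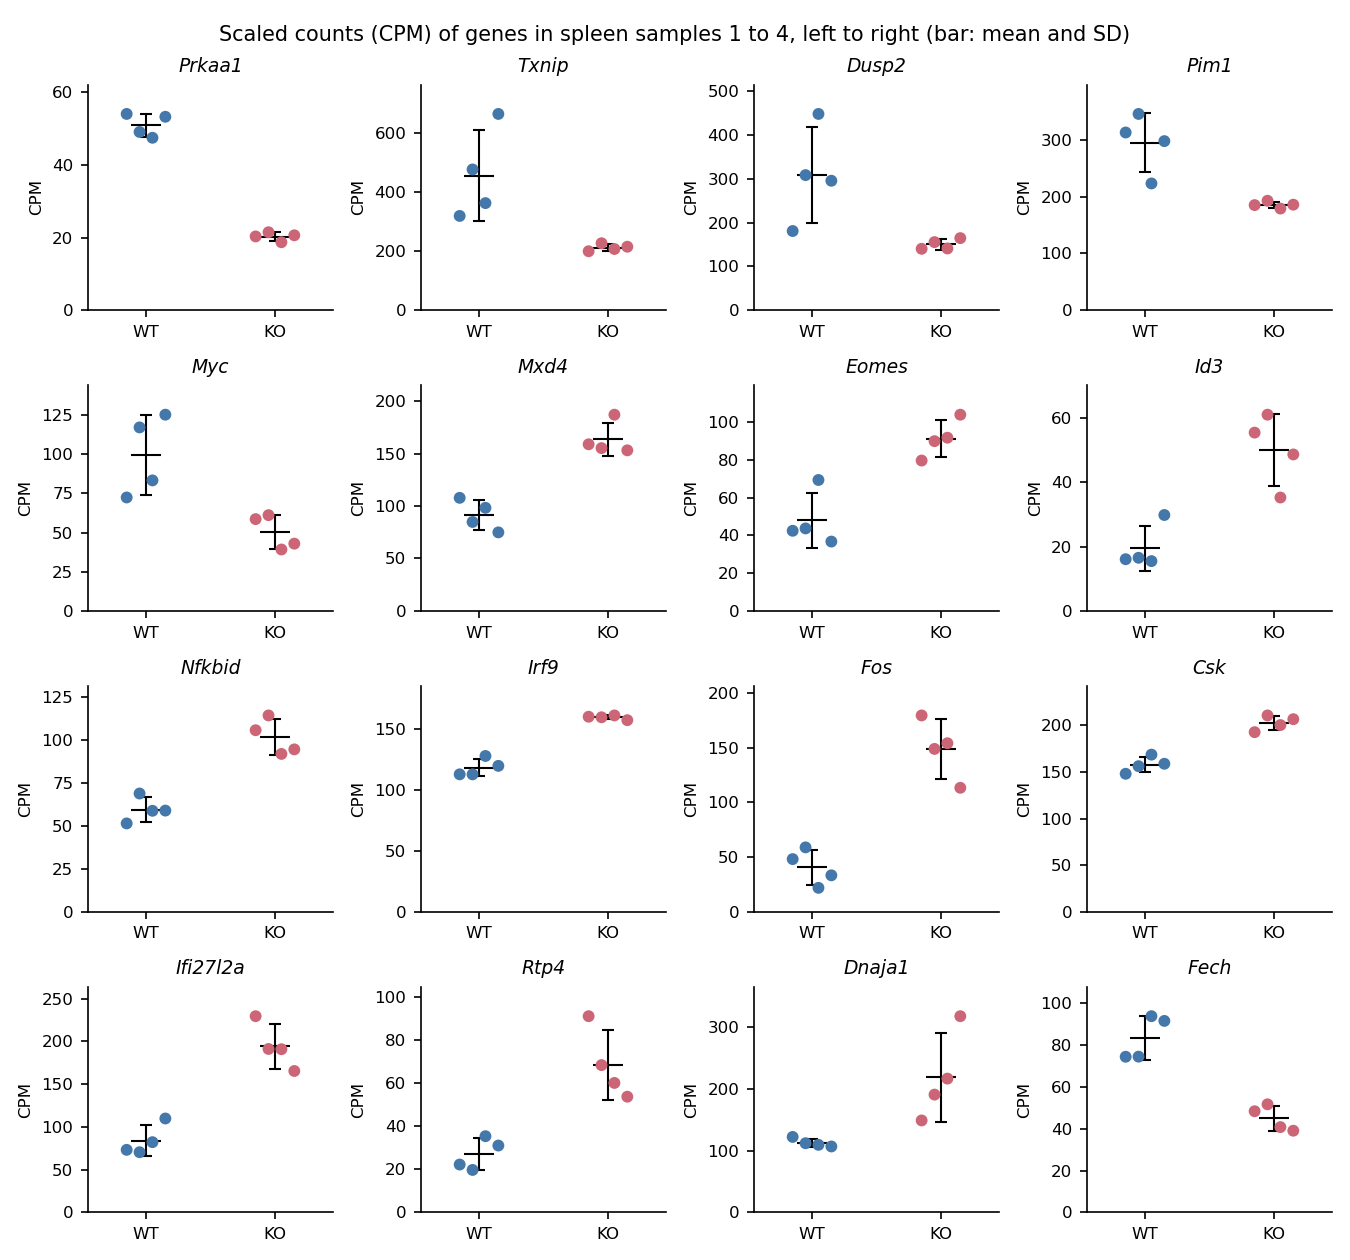
Scaled counts (CPM, linear axes from 0) of 16 genes in the 4 WT (blue) and 4 KO (red) spleen samples, with the mean and SD of each group. In each panel the groups do not overlap. The KO samples sit close together for Pim1 and Irf9, and KO 4 stands highest for Dnaja1.

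In the signalling lists 4 genes were called. Dusp2, a nuclear phosphatase of MAP kinases that is induced by T cell activation, had 180.6, 308.1, 447.7 and 295.3 CPM in WT and 140.0, 155.3, 140.8 and 164.4 in KO (log2 fold change -1.04 ± 0.21, adjusted p = 0.0485). WT 3 was the highest, and without WT 3 and WT 4 the log2 fold change was -0.70 with an adjusted p of 0.112. Of the 36 tested phosphatases and feedback inhibitors 15 had an unadjusted p under 0.05 but only Dusp2 passed edgeR's test, and DESeq2 called 6.

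Csk, the kinase that holds Src family kinases such as LCK inactive, rose by a small and regular step. It had 148.1, 156.2, 168.6 and 158.8 CPM in WT and 192.7, 210.7, 200.4 and 206.7 in KO (log2 fold change 0.36 ± 0.06, adjusted p = 0.0391). Stim2, a calcium sensor of the endoplasmic reticulum that opens store-operated channels, had 126.8, 114.5, 115.7 and 92.2 CPM in WT and 157.0, 168.7, 208.5 and 157.9 in KO (0.62 ± 0.12, adjusted p = 0.0444). Beside these 2 calls, Nfatc2, Sos1 and Cbl were among the genes that also had higher values in every KO sample, with log2 fold changes of 0.20 to 0.30 and no call. In all, 7 of the 59 tested genes of T cell receptor signalling (11.9%) were separated upwards, and none downwards.

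Rgs14, which shortens G protein signals, was the call among 46 genes of G protein and cyclic AMP signalling. It had 100.7, 120.9, 107.3 and 106.9 CPM in WT and 136.1, 152.4, 148.3 and 165.7 in KO (0.47 ± 0.08, adjusted p = 0.0370). The nearest pair was WT 2 and KO 1. Without WT 3 and WT 4 its log2 fold change was 0.44 and it was not called, while that fit called P2ry14, Pde4b and Gnaq of the list, all lower.

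Transcription factors gave more calls. In the list of 64 lineage and memory factors 11 (17.2%) had higher values in every KO sample and 2 had lower values, and 3 passed the test. Mxd4, a partner of MAX that represses MYC targets, rose from 107.8, 84.8, 98.3 and 74.9 CPM in WT to 158.9, 155.3, 187.1 and 153.1 in KO (log2 fold change 0.84 ± 0.11, adjusted p = 0.0123). Myc itself fell. It had 72.3, 117.0, 83.2 and 125.1 CPM in WT and 58.6, 61.1, 39.2 and 42.9 in KO (-0.98 ± 0.20, adjusted p = 0.0453).

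Eomes, a T-box factor of cytotoxic and memory T cells, had 42.4, 43.7, 69.3 and 36.7 CPM in WT and 79.6, 89.9, 91.7 and 103.9 in KO (0.93 ± 0.17, adjusted p = 0.0444). Here WT 3 was the highest of its group, and without WT 3 and WT 4 the difference was 1.08 (adjusted p = 0.00367). Tox2, Runx3, Elf4, Hic1, Zeb2 and Bcl6 were separated upwards without a call (0.26 to 0.68). Klf13 was the other factor separated downwards (-0.55). The helper lineage factors Tbx21, Gata3 and Foxp3 were not among the separated genes. DESeq2 called 11 genes of the list, 4 lower and 7 higher, and Foxp3 was among the lower ones.

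Id3, an inhibitor of E proteins that is maintained in naive and memory T cells, had 16.1, 16.5, 15.5 and 29.8 CPM in WT and 55.4, 61.0, 35.2 and 48.6 in KO (1.36 ± 0.23, adjusted p = 0.0370). WT 4 and KO 3 were the closest pair. The other 4 tested members of the Id and E protein list did not pass.

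Of 26 STAT, NF-κB and interferon factors 6 (23.1%) were separated upwards and none downwards. Nfkbid, a nuclear IκB protein, rose from 51.3, 68.8, 58.7 and 58.8 CPM in WT to 105.6, 114.2, 91.8 and 94.4 in KO (0.77 ± 0.10, adjusted p = 0.0123). Irf9, the DNA-binding part of the complex that carries type I interferon signals, rose from 112.8, 112.7, 127.8 and 119.7 to 160.1, 159.6, 161.1 and 157.2 (0.43 ± 0.06, adjusted p = 0.0139). The 4 KO values of Irf9 lay within a few CPM of one another. Irf9 overlaps Rnf31 in the annotation. Stat2, which pairs with IRF9, was separated without a call by edgeR (0.31), and so was Irf7 (0.51), while DESeq2 called both.

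Among 57 tested interferon-stimulated genes 5 rose (8.77%, against 0.547% of all genes), none fell, and 10 (17.5%) were separated upwards. DESeq2 called 14 higher and 1 lower. The median log2 fold change of the list was 0.28, with 48 of 57 on the higher side. Ifi27l2a, a small protein induced by interferon, had 73.2, 70.4, 82.2 and 109.8 CPM in WT and 229.5, 191.2, 190.9 and 165.4 in KO (1.21 ± 0.15, adjusted p = 0.0112). Rtp4, a receptor-transporting protein induced by interferon, had 22.3, 19.7, 35.4 and 31.1 CPM in WT and 91.2, 68.5, 60.2 and 53.8 in KO (1.33 ± 0.21, adjusted p = 0.0256). For both genes KO 1 was the highest sample.

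Oas3, which makes the second messenger that activates RNase L, had 71.1, 49.6, 67.8 and 73.3 CPM in WT and 141.3, 107.3, 94.2 and 110.2 in KO (0.79 ± 0.14, adjusted p = 0.0416). Xaf1 rose by 0.67 ± 0.13 (adjusted p = 0.0444) and Mx1, a GTPase that blocks viral replication, by 0.96 ± 0.20 (adjusted p = 0.0475). Isg15, a ubiquitin-like modifier, stood at 0.94 ± 0.23 without a call by edgeR (adjusted p = 0.0671), while DESeq2 called it. Without WT 3 and WT 4, 8 genes of the list were called, all higher, with a median of 0.42. Rtp4 overlaps Masp1 in the annotation.

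The RefSeq promoter windows (250 bases before to 50 after a start, GRCm38.p6) were searched on both strands for TTTC, 2 bases of any kind and TTTC again, the core of the interferon-stimulated response element to which IRF9 complexes bind. It was found for 24 of the 40 tested list members with a window (60%), beside 3.99% of all 27025 genes with one. Of the 10 genes separated upwards 7 had a window and 4 of them held the letters. The stretches of Oas3, called higher, and Isg15 are shown as examples of a single match and of several that overlap. Both lie on the minus strand, are printed 5′ to 3′ along the gene, and carry the match on the opposite strand in capitals.
Oas3, chr5:120777700-120777759: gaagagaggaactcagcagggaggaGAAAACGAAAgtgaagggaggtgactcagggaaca
Isg15, chr4:156200850-156200921: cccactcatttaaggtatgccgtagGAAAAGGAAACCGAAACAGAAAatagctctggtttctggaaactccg

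Immediate early genes rose and fell. Of 36 tested 3 rose and 1 fell, and 6 (16.7%) were separated upwards. Fos had 48.1, 58.8, 21.8 and 33.3 CPM in WT and 179.5, 148.9, 154.1 and 113.3 in KO (log2 fold change 1.88 ± 0.26, adjusted p = 0.0133). Fosb, a relative of Fos that also joins JUN in AP-1, had 10.7, 8.78, 2.92 and 4.54 CPM in WT and 35.7, 26.5, 27.8 and 23.4 in KO (2.08 ± 0.33, adjusted p = 0.0276). WT 3 and WT 4 were the lowest samples for both. Without them the log2 fold changes were 1.48 and 1.54, with adjusted p-values of 0.00716 and 0.00999.

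Zfp36l1, which destabilizes AU-rich mRNA, rose by 0.37 ± 0.07 (adjusted p = 0.0391). Pim1, a survival kinase induced by cytokines through STAT5, fell from 313.1, 345.8, 223.3 and 297.9 CPM in WT to 185.2, 192.8, 179.1 and 186.0 in KO (-0.67 ± 0.11, adjusted p = 0.0378). Ier5, Gadd45b and Btg2 were separated upwards without a call by edgeR, and Jun, Junb and Egr1 were not separated. DESeq2 called 13 genes of the list, 6 lower and 7 higher, with Ier5, Gadd45b, Btg2 and Junb among them. Junb was also called by edgeR without WT 3 and WT 4.

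Stress genes differed by kind. Of 29 heat shock chaperones 7 (24.1%) were separated upwards, 2 of them called, and the median was 0.27. Dnaja1, a co-chaperone of HSP70, had 122.0, 111.8, 109.2 and 106.6 CPM in WT and 148.6, 190.4, 216.2 and 317.1 in KO (0.96 ± 0.19, adjusted p = 0.0444). Hspa1a, an inducible HSP70, had 5, 2, 5 and 1 counts in WT and 28, 39, 598 and 383 counts in KO (adjusted p = 0.0444). KO 3 and KO 4 carried most of the Hspa1a signal. Hspa1b is a near-identical copy and reads that fit both were left out, so the level of Hspa1a is uncertain. Dnaja1 overlaps Smu1 in the annotation.

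KO 4 was the highest sample of all 8 for Dnaja1, Dnajb1, Chordc1, Hspa4l, Cacybp and Hspd1, the cytosolic and mitochondrial chaperones separated upwards. Their log2 fold changes were 0.39 to 0.96, and apart from Dnaja1 none passed edgeR's test. DESeq2 called 8 genes of the list, all higher. The mitochondrial HSP70, Hspa9, was separated downwards (-0.20). Summed over the list, the level was 3402 to 4251 CPM in WT and 3669 to 6575 in KO, so the groups overlapped. Over the 8 fits that left out 1 sample, the log2 fold change of Dnaja1 was 0.72 or more, and 1 of these fits called it.

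The heat shock element core was searched as TTCNNGAA and, added after values were seen, as GAANNTTC, which is the same repeat in the other phase. The latter stood in 9 of 23 windows of the list (39.1%) and in 9.04% of all genes, the former in 6 of 23 (26.1%) and in 9.60%. Of the 2 called genes both held GAANNTTC, the form added later, and neither held TTCNNGAA. Their stretches are shown with GAANNTTC in capitals, along the strand of the gene (Hspa1a minus, Dnaja1 plus).
Hspa1a, chr17:34972228-34972285: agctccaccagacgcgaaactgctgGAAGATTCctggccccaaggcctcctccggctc
Dnaja1, chr4:40722319-40722376: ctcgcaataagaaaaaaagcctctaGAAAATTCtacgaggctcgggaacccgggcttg

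In the unfolded protein and ATF4 list none of 32 genes was called by edgeR or DESeq2 or separated, 3 had an unadjusted p under 0.05 in edgeR, although 26 were on the higher side (median 0.09). Among 36 redox genes Gpx4, which detoxifies lipid peroxides, fell from 84.7, 72.4, 83.1 and 89.7 CPM in WT to 64.4, 61.1, 65.6 and 62.7 in KO (-0.38 ± 0.07, adjusted p = 0.0444). Prdx6 and Txnrd2 were separated downwards without a call by edgeR (-0.20 and -0.25), and DESeq2 called Prdx6. Hmox1, which degrades heme and is high in splenic macrophages, had 17.5, 18.9, 38.7 and 16.0 CPM in KO and 10.2 to 12.5 in WT. It was called by DESeq2 and not by edgeR. The highest sample was again KO 3.

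In the list of DNA damage, p53 and death genes 2 of 46 rose. Ccng2, an unconventional cyclin that FOXO factors induce in resting cells, had 67.9, 79.0, 57.6 and 65.1 CPM in WT and 90.6, 112.5, 115.3 and 98.7 in KO (0.63 ± 0.11, adjusted p = 0.0370). Trp53inp1, a p53 target with a role in autophagy, rose by 0.45 ± 0.09 (adjusted p = 0.0444), with 123.5 to 136.9 CPM in WT and 162.6 to 209.3 in KO. Members of the Bcl2 family and Cdkn1a were not among the separated genes of this list. DESeq2 called 6 genes of it, 3 lower and 3 higher, with Bcl2 among the 6. In edgeR 18 of the 46 had an unadjusted p under 0.05.

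Outside the lists, 4 of the 8 higher genes with the smallest p past an absolute log2 fold change of 1 remain to be described. Gh, the growth hormone gene (chr11:106300271-106301865), had 0 counts in all WT samples and 324, 344, 311 and 347 in KO. Against a floor of 3 counts per library it was at least 103.5-fold higher in KO. Gm33707 and Gm38326, neighbours on chromosome 3 (chr3:60769887-60770455 and chr3:60788361-60794730), had 65 to 86 and 31 to 49 counts in KO. In WT Gm33707 had 0 counts in every sample, so that it was at least 24.1-fold higher in KO by the same floor, while Gm38326 had 2 counts in WT 1 and 0 in the others, and no fold is given for it. These 3 genes separated the genotypes in every sample. All KO cells carried CD4-Cre and no WT cells did, so the transgene and the loss of Prkaa1 go together in these samples. Which of them the 3 genes follow was not tested. Itgad, an integrin chain of red pulp macrophages, rose from 3.26 to 4.20 CPM in WT to 8.91 to 18.1 in KO (1.65 ± 0.24, adjusted p = 0.0177), with KO 3 the highest, as for the macrophage markers. Several annotated genes overlap it.

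In the lower direction the same rule gave Ifngr1 and Il2ra, which are receptors, the lipocalin gene Lcn4 (-1.82 ± 0.27, adjusted p = 0.0183), the erythroid gene Rhag and 3 neighbours on chromosome 7. Of these, 5830411N06Rik, a scavenger receptor cysteine-rich gene, had 52.6, 51.7, 36.8 and 26.8 CPM in WT and 14.4, 13.2, 8.45 and 14.2 in KO (-1.74 ± 0.23, adjusted p = 0.0123). Olfr525 had a log2 fold change of -1.45 ± 0.19 and Olfr60 of -1.24 ± 0.17, both with an adjusted p of 0.0123.

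The neighbourhood of these 3 genes was described after their values were seen. All 10 tested genes from Cd163l1 to Zfp941 (chr7:140218267-140822178) had lower values in every KO sample, with log2 fold changes of -1.74 to -0.93, and 5 of the 10 were called. Cd163l1, the scavenger receptor gene that opens the run, had 19.2, 15.8, 10.03 and 20.5 CPM in WT and 7.65, 9.63, 8.35 and 8.73 in KO. The run was taken as the stretch in which every tested gene was separated, so the separation of all 10 follows from that choice. Of the tested genes beside it, whose KO and WT values overlapped, Sprn and Olfr524 before it stood at -0.73 and -1.35. Bet1l, the next tested gene after it, stood at -0.10. Without WT 3 and WT 4, 4 of the 10 were called. All 10 were negative in that fit, which their separation over all 8 samples leaves little room to change. In mLN the 9 of them that were tested were negative too, at -1.88 to -0.62, and 2 were called. Most of these genes have few counts.

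**Figure D3:**
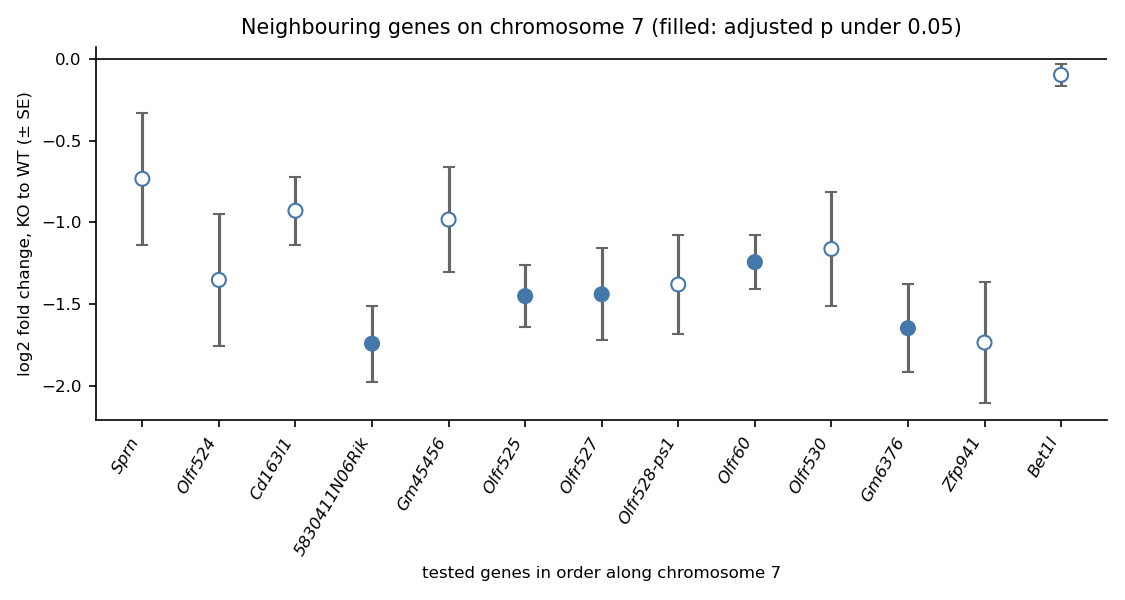
Log2 fold change of KO over WT (± SE, edgeR fit of 4 against 4 spleen samples) for 13 tested genes in their order along chromosome 7. From Cd163l1 to Zfp941 all 10 lie between -1.74 and -0.93, and Bet1l beyond them lies at -0.10. Before them, Sprn and Olfr524 lie at -0.73 and -1.35, with KO and WT values that overlap.

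The erythroid markers differed most between samples of the same group. The 25 markers, which include globins, heme synthesis and membrane skeleton genes of red cell precursors, summed to 225.5, 198.2, 2281 and 1139 CPM in WT 1 to 4 and 146.4, 121.5, 199.1 and 101.5 in KO 1 to 4. WT 3 and WT 4 stood far above the rest, and WT 2 lay just under KO 3. On the log2 scale the 4 WT sums averaged 9.19 with an SD of 1.74. The 4 KO sums averaged 7.11 with an SD of 0.42, for a difference of -2.08 (exact permutation test, two-sided, p = 0.0571, where 0.0286 is the smallest that 4 against 4 allows).

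Hbb-bs, the main adult β-globin gene, had 59.96, 42.0, 1025 and 456.0 CPM in WT and 27.8, 20.1, 51.7 and 21.3 in KO. Hba-a1 (α-globin), Alas2 (the erythroid enzyme that starts heme synthesis) and Slc4a1 (the anion exchanger band 3) were likewise high in WT 3 and WT 4. Their log2 fold changes and that of Hbb-bs were -3.72 to -3.17 with adjusted p-values of 0.0700 to 0.0766 in edgeR, which called none of them. DESeq2 called all 4 named here, with adjusted p-values of 0.00716 to 0.0156. Without WT 3 and WT 4 they were -0.99 to -0.70.

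Of the 22 tested erythroid markers edgeR called Rhag and Rhd, with 20 at an unadjusted p under 0.05, and DESeq2 called 16, all lower. Rhag, an ammonium channel of the red cell membrane, had 5.25, 5.54, 14.1 and 7.90 CPM in WT and 1.26, 0.80, 1.25 and 1.36 in KO (-2.81 ± 0.36, adjusted p = 0.0123), so that WT 1 and WT 2 were above KO as well. Without WT 3 and WT 4 it stood at -2.20 (adjusted p = 0.00998). Rhd went from -2.71 to -1.54 and lost its call.

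Fech, the last enzyme of heme synthesis, was the call among 25 heme and iron genes, of which DESeq2 called 4. It had 74.4, 74.5, 93.8 and 91.6 CPM in WT and 48.4, 51.7, 40.8 and 39.1 in KO (-0.89 ± 0.12, adjusted p = 0.0123). WT 3 and WT 4 were the highest, and the difference to WT 1 and WT 2 alone was -0.73 (adjusted p = 0.0301). Alad, an earlier enzyme of the pathway, was separated downwards without a call (-0.37), and stood at -0.32 without WT 3 and WT 4.

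**Figure D4:**
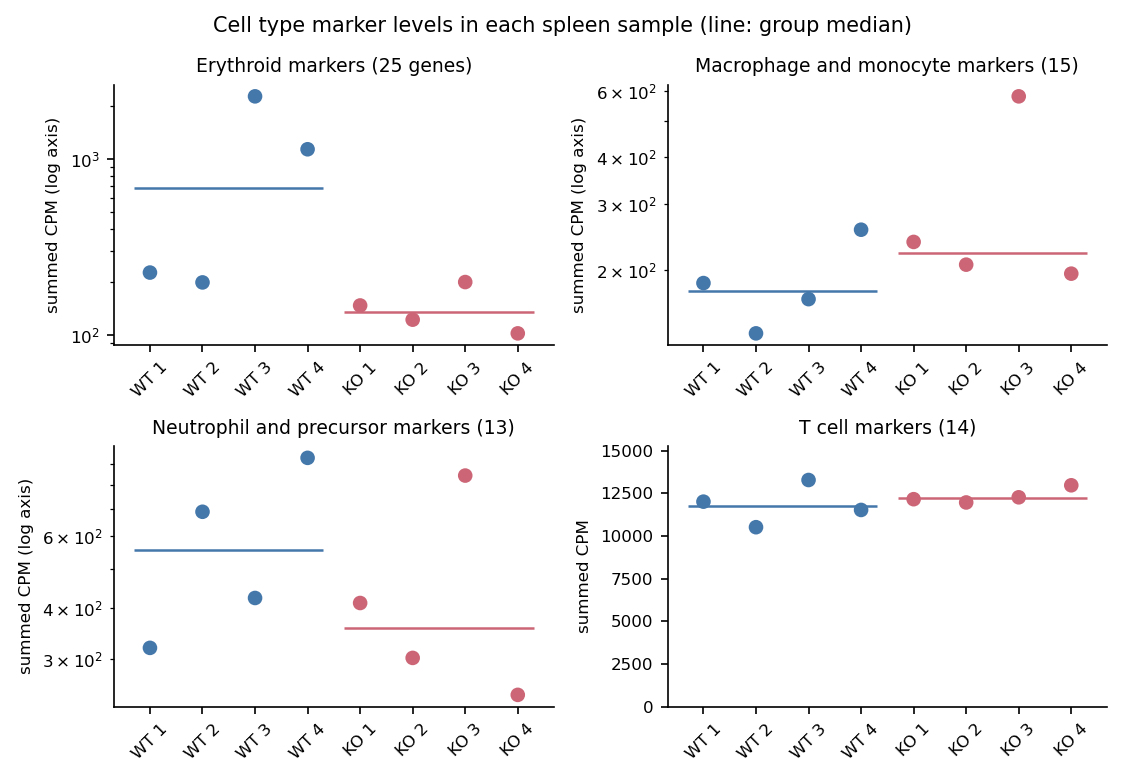
Summed CPM of marker genes in each spleen sample, for erythroid cells, macrophages and monocytes, and neutrophils (log axes) and for T cells (linear axis from 0). Lines mark group medians. WT 3 (2281 CPM) and WT 4 (1139 CPM) stand out for erythroid markers and KO 3 (581.3 CPM) for macrophage markers.

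Across the 107 genes that fell, WT 3 and WT 4 were both above WT 1 and WT 2 in 25 (23.4%, beside 14.4% of all genes). Across the 78 that rose they were both below in 18 (23.1%, beside 13.95%). When WT 3 and WT 4 were left out, all 185 genes kept their direction. Since none of them had overlapping KO and WT values, leaving out samples could hardly change it. Of the 185 genes, 8 moved by over 0.5 on the log2 scale. The median went from -0.93 to -0.87 for the genes that fell and from 0.64 to 0.55 for those that rose. That fit called 71 lower (0.483%) and 48 higher (0.327%) genes, of which 39 and 28 were among the 107 and 78. Leaving out WT 1 and WT 2 in their place gave 68 and 24 calls, of which 23 and 12 were shared. Of the 38 called genes that the naming rule gave, 26 were called in the fit without WT 3 and WT 4. The 12 that were not were Slc5a3, Dusp2, Stim2, Rgs14, Myc, Hspa1a, Dnaja1, Gpx4, Ccng2, Trp53inp1, Oas3 and Itgad, with adjusted p-values of 0.0662 to 0.156. Among the lists, that fit called, with others, 8 interferon-stimulated genes, 2 lower and 4 higher immediate early genes, 3 lower and 2 higher lineage and memory factors, 3 lower G protein and cyclic AMP genes and no heat shock chaperone. The genes that moved most were Rhd, Gm47603, Add2, a membrane skeleton gene, and Gm38326.

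Removing the erythroid markers from the table left 105 and 80 calls, which held the other 105 genes that fell and all 78 that rose. This step left the counts of all other genes as they were, so it could hardly change their calls. It does not show how much erythroid RNA adds to those genes. With the log2 erythroid level as a covariate, 11 and 8 genes were called, of which 7 and 6 were among the 107 and 78. All 185 kept their direction in that fit. The erythroid level was higher in 3 of the 4 WT samples than in any KO sample, so that the covariate and the genotype partly coincide.

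**Figure D5:**
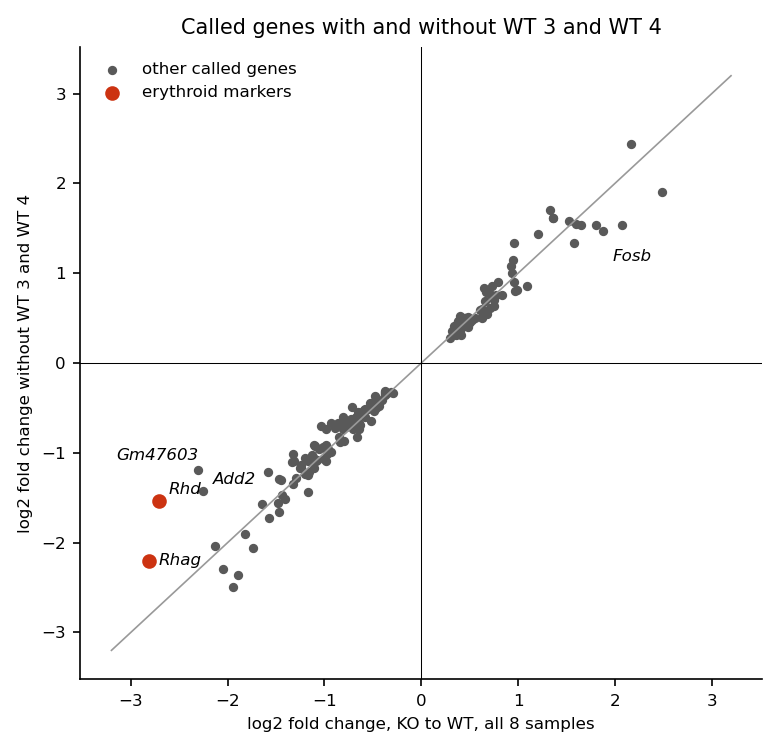
Log2 fold change of the called genes over all 8 samples (horizontal axis) and without WT 3 and WT 4 (vertical axis), with the line of equal values. Of the 185 genes 181 are drawn and 4 lie beyond 4 on the horizontal axis. The erythroid markers Rhag and Rhd lie above the line, at -2.20 and -1.54.

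The 15 macrophage and monocyte markers summed to 184.7, 135.6, 167.3 and 256.3 CPM in WT and 237.8, 206.8, 581.3 and 195.7 in KO, so the sums overlapped. None of the 15 passed edgeR's test, with 11 at an unadjusted p under 0.05, and DESeq2 called 9, all higher. Of the 15, 8 (53.3%) were separated upwards, with C1qa, C1qb and C1qc, which make complement C1q, at 1.85, 1.93 and 1.68. For all 8 of them KO 3 was the highest sample. The MHC class II genes H2-Aa, H2-Ab1 and H2-Eb1 were separated upwards too (1.11 to 1.27), as was Hmox1. Without WT 3 and KO 3, 43 lower and 35 higher genes were called, 29 and 25 of them shared. The part of other cells' RNA in the results was not tested.

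The same contrast in mLN, over 3 WT and 4 KO samples, called 92 of 14359 genes (0.641%). The series holds no WT mLN sample with replicate number 3. In mLN the erythroid markers summed to 82.8, 114.1 and 937.3 CPM in WT 1, 2 and 4, and to 79.9 to 119.2 CPM in KO. The erythroid level was thus uneven in the mLN contrast as well. Of the 38 genes that the rule named and that were called in spleen, 37 were tested in mLN, 35 had the same direction there and 15 were called. The exceptions were Fos and Fosb, with log2 fold changes of -0.76 and -0.16 in mLN. The genotype by organ interaction was not significant for any of 15438 genes (0%) in edgeR's quasi-likelihood test, with 652 at an unadjusted p under 0.05. That fit took all samples as independent, although spleen and mLN samples may come from the same mice, which the labels do not say. The shared direction in spleen and mLN may not be independent for the same reason. For Fos the interaction was 2.64 with an unadjusted p of 4.5e-04 in the edgeR fit, and no adjusted p passed. With the replicate number as a block 3 genes had an interaction call, and with no filter on low counts 112.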

How the data were processed

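CD4+ T cells sorted from the spleens of Rag2-/- recipients were profiled by RNA sequencing in 4 WT and 4 KO samples. Alignment was to GRCm38 with STAR 2.6.1a (per the labels' processing notes), and the authors deposited raw counts per gene, with no normalization. Whether the counts use strand is not given in the sources used here, so overlapping and antisense genes are uncertain. Rows for unaligned, multimapping (7.70% to 8.33% of reads), ambiguous and unassigned reads were dropped. Of 55421 genes 55240 were matched to GENCODE M21 on the same build.

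Counts were tested with edgeR 4.0.16 in R 4.3.3 (filterByExpr, TMM, quasi-likelihood test of KO against WT, Benjamini-Hochberg over all genes tested). The limit was an adjusted p of 0.05 and no fold limit. DESeq2 1.42.0 was an alternative, where the authors also used DESeq2. The SE is the absolute log2 fold change over the square root of the F statistic. Values at or under 3 counts were taken as the floor, which covers counting error only since reads carry no molecular identifiers. Procedures were tested on simulated data. Python 3.11.15 and scipy 1.17.1 served for the other steps.

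Gene lists, named genes and tests were chosen with earlier results of these data known. Named were Prkaa1 and Prkaa2. From each function list other than 12 receptors and ligands, up to 4 separated and called genes with the smallest p were named, or 1 separated gene where none was called. Over all genes, up to 8 lower and 8 higher genes past a log2 fold change of 1 were named, and 5 erythroid genes were added. Any other gene in the text, among them Gm15441, Mx1, Isg15, Stat2, Irf7, Acaca, Rptor, Rhd, Add2, Hmox1 and the neighbours on chromosome 7, was chosen after its values were seen. Promoter stretches are from RefSeq. Alternatives were RLE normalization, other filters on low counts, 1 fit over all 15 samples, a block for the replicate number, each replicate left out, WT 3 and WT 4 left out, and the erythroid markers removed or used as a covariate. The fits without WT 1 and WT 2, and without WT 3 and KO 3, were added after seeing the data. The mLN samples entered only beside spleen values. Values of some genes in the lists are not reported here.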

Additional observations from a re-analysis of the deposited data

Results flagged for a closer look

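Within the groups of 4, 126 sets of values (the named genes and the marker sums in WT and in KO spleen) were tested for a sample far from its group with Dixon's ratio at its 95% critical value. Chance alone flags about 1 in 20 groups, and 10 of the 126 passed the limit. In the KO group these were KO 4 for Slc5a3 (44.6 CPM), Rpe (97.8 CPM) and Trp53inp1 (209.3 CPM), KO 3 for Mxd4 (187.1 CPM) and for the summed macrophage and monocyte markers (581.3 CPM), and KO 2 for Lcn4 (2.03 CPM). In the WT group they were WT 4 for Id3 (29.8 CPM) and for the summed CD8 T cell markers (5.03 CPM), WT 2 for Olfr525 (11.8 CPM) and WT 1 for Gm38326 (0.21 CPM, which is 2 counts). The erythroid markers did not pass, since WT 3 and WT 4 were both high. No named gene was separated in opposite directions in spleen and mLN.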

How the results depend on the processing

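The number of calls depended strongly on the fit. Every alternative kept the direction of all 52 named genes tested in it. Most of these were named because their KO and WT values did not overlap, so leaving out samples could hardly change their direction. The lower and higher calls in spleen (107 and 78) became 455 and 385 with DESeq2, 745 and 677 with no filter on low counts, 43 and 42 with all 15 samples in 1 fit, 46 and 18 past an absolute log2 fold change of 1, 71 and 48 without WT 3 and WT 4, 11 and 8 with the erythroid covariate, 68 and 24 without WT 1 and WT 2, and 43 and 35 without WT 3 and KO 3. Leaving out 1 sample gave 8 to 183 lower and 4 to 141 higher calls, with the most without WT 3 (183 and 141) and the fewest without KO 2 (8 and 4). The cause was not tested. Samples with the same replicate number did not deviate together (correlations of -0.247 to 0.121), and the replicate block left 9 and 8 calls. Of the 38 named genes called in spleen, 7 stayed called in every fit that left out 1 sample, 26 without WT 3 and WT 4 and 9 with the erythroid covariate. The interaction had 0 calls with RLE normalization and in every fit that left out 1 sample, 112 with no filter and 3 with the replicate block. The erythroid difference of -2.08 was -2.10 without TMM scaling and -1.37 without the globin genes (exact permutation p = 0.0286 in both), -2.60 to -1.43 with 1 sample left out, where p ranged from 0.0286 (without WT 2) to 0.171, and -2.65 for 4 globin genes (exact permutation p = 0.0571). Permuting within replicate numbers, the replicate block for that level, gave p = 0.125 (exact permutation test), the smallest that it allows. Low counts limit Hspa1a, Rhag, Lcn4 and the chromosome 7 genes.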
